A study of Mus musculus and Rattus norvegicus with 37 samples.

Results

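The genes described here are 9 fatty acid desaturases and elongases of the liver, namely Scd1, Scd2, Fads1, Fads2, Fads3, Elovl1, Elovl2, Elovl3 and Elovl5. They were taken by gene name from tables of normalized read counts, and 9 of 47929 uniquely named entries in each of the mouse tables and 8 of 28026 in each of the rat tables carried such a name. Scd1 was the name not found in rats, whose tables hold an entry called Scd. That entry is given here beside the 9 genes, outside the rule that chose them.

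The livers came from 21 mice and 16 rats, all collected in the fed state, and each library was made from polyadenylated RNA. WT/Floxed mice were female C57BL/6J animals that were either wild type (9 to 11 weeks of age) or carried the floxed Sirt1 allele (15 to 20 weeks). L-Sirt1 KO mice, female littermates of the floxed mice at 15 to 20 weeks, lacked Sirt1 in the liver. The Cre driver of this deletion is not given in the sources used here. Mice of both genotypes received a single subcutaneous dose of saline or of LNA29, a mixture of locked nucleic acid inhibitors against miR-29a and against miR-29b/c at 20 mg/kg each, and livers were taken on day 7. Groups held 8 WT/Floxed LNA29 mice (4 wild type, 4 floxed), 5 WT/Floxed saline mice (3 wild type, 2 floxed), 4 L-Sirt1 KO LNA29 mice and 4 L-Sirt1 KO saline mice. A further floxed saline mouse had been left out by the authors as an outlier. Saline was the only mouse control, with no LNA of scrambled sequence. The mice were treated at more than a single institution, and the labels do not say which. The rats were male: 4 obese fa/fa Zucker Fatty rats (ZFR) and 4 Zucker Lean rats (ZLR) of 5.5 months, and, in a separate table, 4 ZFR given BT2 at 20 mg/kg daily for 1 week and 4 given the dimethylsulfoxide vehicle, all of 3 months. BT2 is a small-molecule inhibitor of the kinase that switches off branched-chain ketoacid dehydrogenase. Nothing in the labels says that any 2 samples came from 1 animal.

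Fatty acids made in the liver leave fatty acid synthase mainly as palmitate. Desaturases of the endoplasmic reticulum then put in double bonds, and elongases start a cycle that adds a pair of carbons at a time. Scd1 is the main hepatic stearoyl-CoA desaturase and makes oleate and palmitoleate for triglyceride, while Scd2 is a close relative best known from brain and from the neonatal liver. Fads2 and Fads1 desaturate the essential polyunsaturated fatty acids on the way to arachidonate and eicosapentaenoate, with Elovl5 and Elovl2 lengthening the intermediates. Elovl1 and Elovl3 lengthen saturated and monounsaturated chains. Many of these genes are known targets of SREBP-1c and LXR in liver, and Elovl3 is known for a strong daily rhythm there.

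LNA29 acts on the 3 mature microRNAs of the miR-29 family, which are printed because the inhibitors were directed against them. Capitals mark the seed (bases 2 to 8), which is the same in all 3. The sequences and positions are from RefSeq (GRCm38.p6).
mmu-miR-29a-3p: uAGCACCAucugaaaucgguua
mmu-miR-29b-3p: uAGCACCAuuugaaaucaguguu
mmu-miR-29c-3p: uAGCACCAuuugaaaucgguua
The first lies at chr6:31062673-31062694 on the minus strand, the second at chr1:195037091-195037113 on the plus strand (the Mir29b-2 copy) and the third at chr1:195037600-195037621 on the plus strand. A match to the seed reads TGGTGCT on the transcript strand. In the longest annotated 3′ UTR of each gene (GENCODE M21, GRCm38), 1 of the 9 held these 7 letters. Scd1 had a single match at chr19:44397567-44397573, minus strand, 346 bases into a 3′ UTR of 3464 bases. It is shown with its neighbouring bases, the match in capitals.
Scd1 3′ UTR site: tgctagggtgagcaTGGTGCTc
Among the 13483 genes tested in WT/Floxed mice for which a 3′ UTR was annotated, 2082, or 15.4%, held such a match, and the median 3′ UTR had 1154 bases. No match was found in the longest 3′ UTRs of Scd2, Fads1, Fads2, Fads3, Elovl1, Elovl2, Elovl3 or Elovl5. A match is a description of letters and not a measured site.

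Of the 9 genes, 6 lie on chromosome 19 (GRCm38). Fads3 (chr19:10041569-10060110, plus strand), Fads2 (chr19:10062765-10101746, minus) and Fads1 (chr19:10182888-10196877, plus) are neighbours. So are Scd2 (chr19:44293674-44306864, plus) and Scd1 (chr19:44394455-44407879, minus), and Elovl3 is at chr19:46131897-46135694 (plus). Elovl1 is at chr4:118428093-118432953 (plus), Elovl5 at chr9:77917364-77984519 (plus) and Elovl2 at chr13:41182381-41220405 (minus). Whether counting used strand is not given in the sources used here; the ends of Elovl1 and Cdc20 overlap by 53 bases on opposite strands, and those of Elovl3 and Pitx3 by 10 bases. Scd1 and Scd2 are similar in sequence, so that reads shared between them may have been split by the estimation.

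Read depth was even in mice, at 42.6 to 78.0 M estimated reads a library, and very uneven in rats, at 0.188 to 58.5 M, with 6 of 16 rat libraries under 1 M (ZLR 3 and 4, ZFR 3, vehicle 4, BT2 1 and 4). A single read was therefore worth 0.746 to 1.37 normalized counts in mice and 0.0322 to 10.5 in rats. Summed hepatocyte markers reached at least 4857390 normalized counts in each mouse library and 181519 in each rat library, so the tissue label held. Sirt1 itself was counted at 552.7 to 616.5 in L-Sirt1 KO saline livers and at 492.7 to 699.1 in WT/Floxed saline livers; these are counts over the whole gene from tables normalized separately, so they do not show whether a floxed segment was removed and do not check the genotype labels. In bulk liver, fewer cells of a type and less RNA per cell cannot be told apart.

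**Figure D1:**
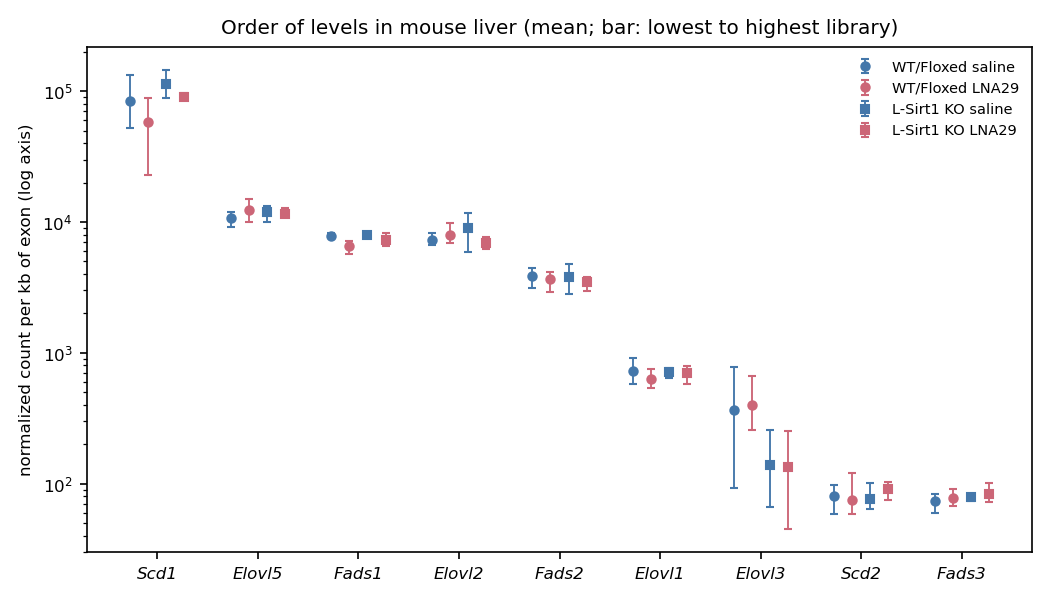
Normalized counts per kb of merged exon (log axis) for the 9 genes in the 4 mouse groups; symbols are group means and bars run from the lowest to the highest library (n = 5, 8, 4 and 4 in the order of the key). Scd1 stands above all other genes in every group, and Fads3 and Scd2 lie at the bottom with overlapping bars.

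Per kb of exon, the level of Scd1 was the highest in all mouse groups. In WT/Floxed saline livers it averaged 84071 ± 31109 normalized counts per kb (SD, n = 5). Elovl5 came next at 10786 ± 1130, followed by Fads1 at 7785 ± 265 and Elovl2 at 7304 ± 803, whose ranges overlapped. Fads2 averaged 3885 ± 611 and Elovl1 724 ± 119. The range of Elovl3 (92.7 to 775.4) overlapped that of Elovl1 (580.0 to 908.0) and that of Scd2 (58.9 to 98.3). Fads3, at 74.1 ± 9.68, overlapped Scd2. Scd1, Elovl5, Fads2 and Elovl1 kept places 1, 2, 5 and 6 in all 4 groups, though Elovl5 overlapped Elovl2 in L-Sirt1 KO saline livers. Fads1 and Elovl2 changed places with ranges that overlapped. Elovl3 averaged 367 ± 250 per kb in WT/Floxed saline and 138 ± 85.9 in L-Sirt1 KO saline livers, which were normalized separately and not tested against each other.

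The first comparison asked how the 9 genes responded to LNA29 in mice with hepatic Sirt1. Fads1 was the gene that separated the groups. It was lower in all 8 LNA29 livers than in any of the 5 saline livers, at 0.837 of the saline level in the fit. The other 8 genes overlapped between groups, Scd1 among them although its mean was the furthest down. None of the 9 passed the call, which required p under 0.05, adjusted p under 0.2, a mean over 50 and a fold change over 1.2. The background was 4.35% of the 15811 genes tested (2.42% higher and 1.93% lower with LNA29), and 1.51% had groups that did not overlap. An unadjusted p under 0.05 in limma was reached by 1 of the 9, Fads1, and by 2105 of the 15811 genes tested. That count does not set the 9 apart.

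**Figure D2:**
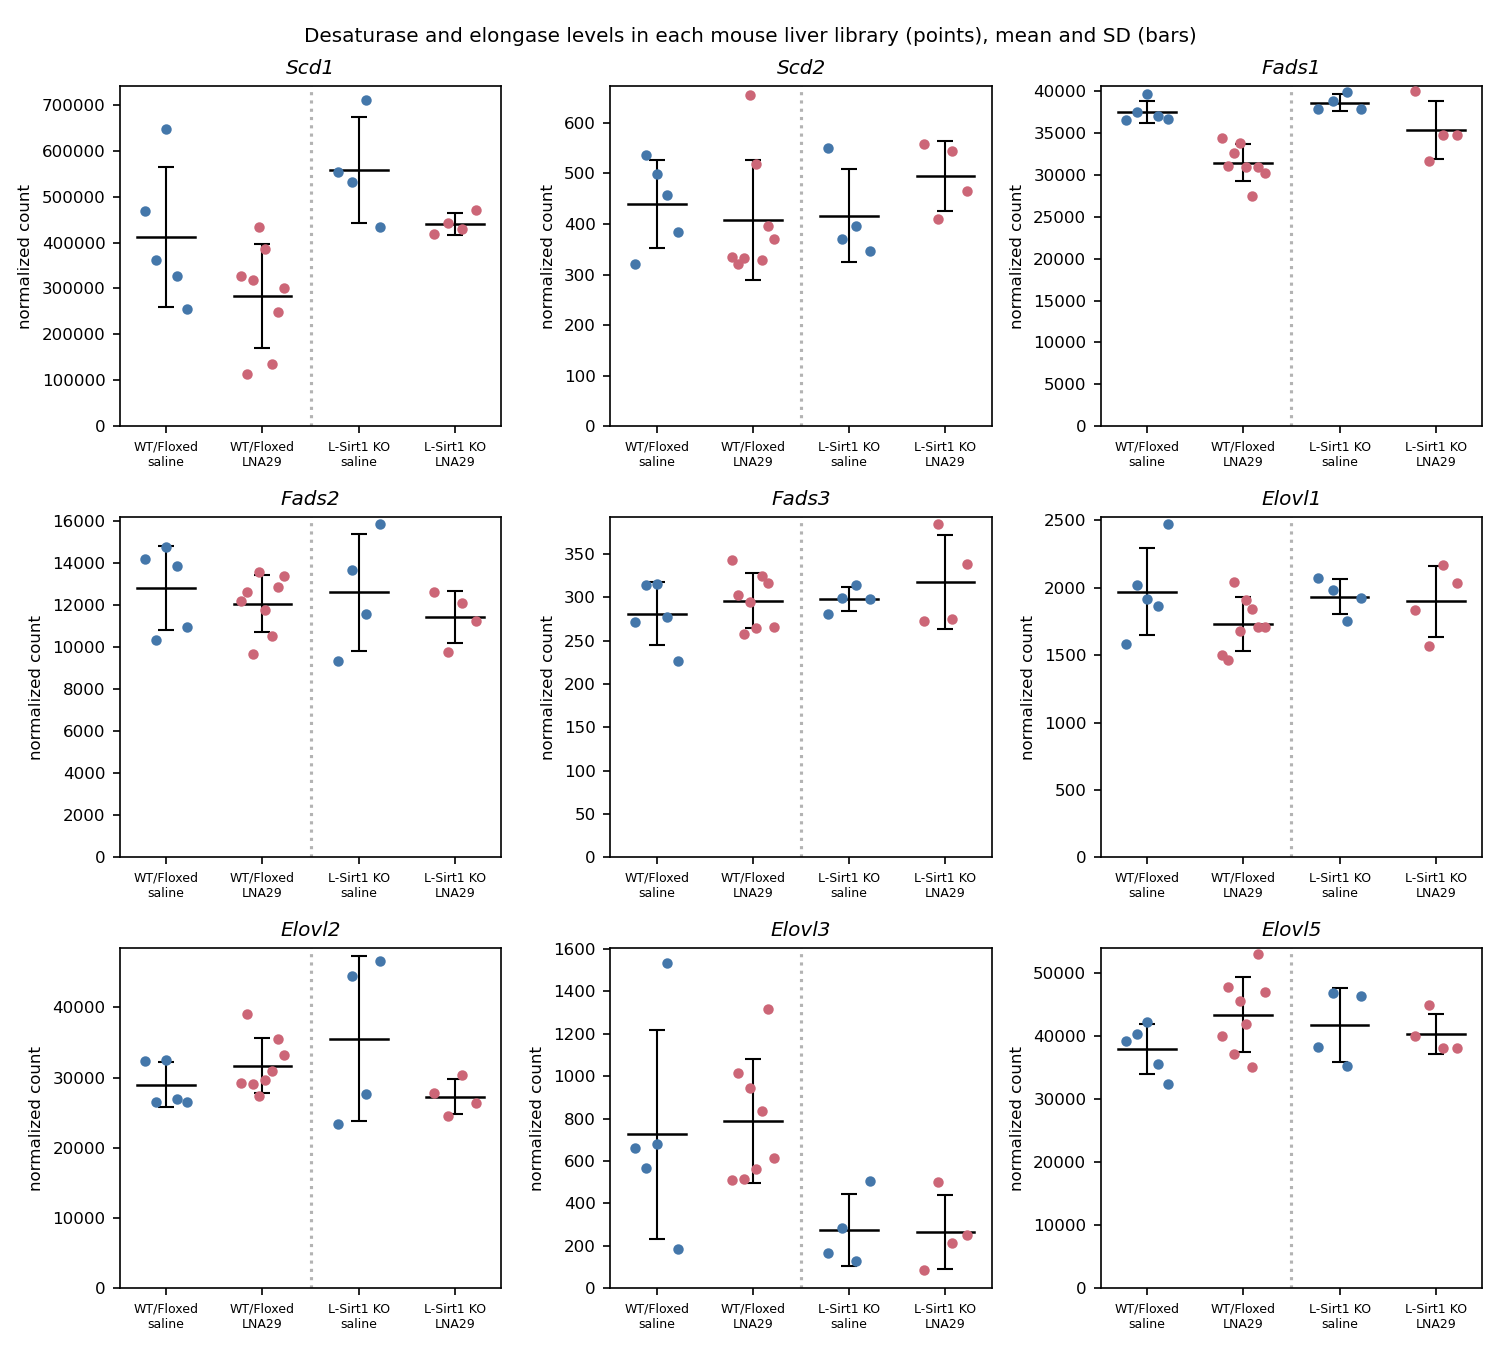
Normalized counts (vertical axes from 0) of the 9 genes in each of the 21 mouse livers; points are libraries, lines group means and bars SDs, with saline in blue and LNA29 in red and a dotted line between the separately normalized genotypes. In WT/Floxed mice every Fads1 point under LNA29 (27495 to 34425) lies below every saline point (36521 to 39647), whereas the points of the other 8 genes overlap.

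Scd1 was counted at 467895, 361745, 646105, 326195 and 254431 in the saline livers of WT/Floxed mice 1 to 5. Under LNA29 its lowest value was 112879, its median 310005 and its highest 433693. The low values were thus found in some LNA29 livers, and the groups overlapped widely. The mean went from 411274 ± 152187 (SD, n = 5) to 283036 ± 112670 (n = 8). In log2 terms the difference was -0.59 (95% interval -1.28 to 0.09), which missed the threshold in limma (adjusted p = 0.464). The two-sided exact permutation p was 0.137 over 1287 arrangements. The difference was -0.88 among wild type and -0.19 among floxed mice, and ranged from -1.19 to -0.07 within the 3 run codes of the library names.

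Scd2, the minor desaturase in adult liver, was counted at 321.8 to 536.9 in saline and 321.8 to 654.7 in LNA29 livers, with a median of 353.0 in the latter. The mean levels were 440 ± 86.7 and 407 ± 119, and the log2 fold change of -0.13 (-0.52 to 0.26) had an adjusted p of 0.821.

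Fads1, which makes arachidonate and eicosapentaenoate, was counted at 36521, 37457, 39647, 37041 and 36649 in the saline livers. In the 8 LNA29 livers the lowest count was 27495, the median 30959 and the highest 34425. The saline values lay within a narrow band and the groups did not overlap. The mean was 37463 ± 1275 (SD, n = 5) in saline and 31412 ± 2194 (n = 8) in LNA29 livers, a log2 fold change of -0.26 (95% interval -0.39 to -0.12, SE 0.062). limma gave an adjusted p of 0.059, and the two-sided exact permutation p was 0.00155. Fads1 met the p, adjusted p and level criteria and missed the fold criterion of 1.2 alone. With limma's sample quality weights, which shift the estimate to -0.28, it passed the call (adjusted p = 0.021). It also passed on leaving out LNA29 mouse 1, 3 or 4 or saline mouse 1 or 5, with log2 fold changes of -0.28 to -0.26. Over all genes, sample quality weights called 1308 and the fit without LNA29 mouse 1 called 1006, against 688 in the reported fit. Among the settings that left Fads1 uncalled, a replicate block gave -0.20 (adjusted p = 0.732 in limma). Leaving out saline mouse 3 gave -0.24 (adjusted p = 0.143), and with no minimum mean the adjusted p was 0.160. The difference ranged from -0.37 to -0.18 within run codes and was -0.21 among wild type and -0.29 among floxed mice.

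Fads2, the desaturase that precedes Fads1 in the pathway and its neighbour on the chromosome, moved less. It was counted at 14153, 10326, 14723, 13852 and 10945 in saline livers and at 9673 to 13553 (median 12392) in LNA29 livers. Its log2 fold change was -0.08 (-0.31 to 0.15; adjusted p = 0.815). As a check chosen after the values were seen, the log2 ratio of Fads1 to Fads2 was taken in each liver. It averaged 1.56 ± 0.22 in saline and 1.39 ± 0.18 in LNA29 livers, ranges that overlapped, and the difference of -0.18 had a two-sided exact permutation p of 0.134. A larger change of Fads1 than of Fads2 was therefore not shown. Fads3, a homologue expressed at a low level in liver, was counted at 226.5 to 315.8 in saline and 258.0 to 343.4 in LNA29 livers (log2 fold change 0.08, -0.15 to 0.31).

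The elongases of polyunsaturated fatty acids leaned upward in mean without passing the test. Elovl5 was counted at 39243, 40418, 42324, 35538 and 32409 in saline and at 35067 to 52998 (median 43755) in LNA29 livers, with a log2 fold change of 0.19 (-0.03 to 0.41; adjusted p = 0.465). Elovl2 was counted at 32333, 26515, 32564, 26918 and 26502 in saline and at 27312 to 38988 (median 30243) in LNA29 livers, with a log2 fold change of 0.13 (-0.07 to 0.33; adjusted p = 0.618). Elovl5 values of saline mice 1 to 4 fell inside the LNA29 range, whereas Elovl2 values of saline mice 2, 4 and 5 fell just below it.

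Of the elongases of saturated and monounsaturated chains, Elovl1 was counted at 1581, 2018, 1920, 1869 and 2475 in saline and 1462 to 2045 (median 1708) in LNA29 livers, with a log2 fold change of -0.18 (-0.41 to 0.05; adjusted p = 0.515). Elovl3 varied most between mice of 1 group. Its saline counts were 660.2, 568.1, 681.4, 1531 and 183.1, and its LNA29 counts ran from 508.2 to 1314 (median 725.5). The log2 fold change of 0.33 (-0.49 to 1.16) turned to -0.09 without saline mouse 5, the lowest liver.

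The second comparison asked the same in mice without hepatic Sirt1. None of the 9 genes passed the call in L-Sirt1 KO mice, none had an unadjusted p under 0.05 in limma, and the groups of every gene overlapped. Of the 15885 genes tested, 1.87% were called (1.19% higher and 0.68% lower), and 6.95% had groups that did not overlap. An unadjusted p under 0.05 in limma was found for 1779 of them. With 4 against 4 mice the smallest two-sided exact p is 0.0286.

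Scd1 was counted at 553509, 531218, 710686 and 432808 in saline and at 418177, 442282, 429346 and 471756 in LNA29 livers. The LNA29 values were close together, and 3 of 4 saline values lay above them all. The mean was 557055 ± 115065 in saline and 440390 ± 23114 in LNA29 livers (SD, n = 4 each), with a log2 fold change of -0.32 (-0.65 to 0.01; adjusted p = 0.466, two-sided exact permutation p = 0.0857). The difference was below 0 within each of the 3 run codes (-0.36 to -0.23).

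Fads1 was counted at 37789, 38790, 39889 and 37878 in saline livers, as narrow a band as in WT/Floxed saline livers. Under LNA29 it was counted at 39954, 31641, 34772 and 34772, so that LNA29 mouse 1 lay above every saline mouse. The log2 fold change was -0.13 (-0.33 to 0.06; adjusted p = 0.613). Fads2 was counted at 9338, 13646, 11548 and 15843 in saline and at 12623, 9750, 12060 and 11247 in LNA29 livers (log2 fold change -0.12, -0.47 to 0.23).

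Elovl2 split its saline group: mice 2 and 4 had 44410 and 46655 counts and mice 1 and 3 had 23379 and 27672. The LNA29 livers, at 27774, 24566, 30403 and 26321, lay near the lower pair. The log2 fold change was -0.32 (-0.80 to 0.15; adjusted p = 0.618). Fads2 and Elovl5 were also highest in saline mice 2 and 4 (46933 and 46451 counts of Elovl5, against 38374 and 35269 in mice 1 and 3). Elovl6, which is no member of the 9, ran the other way, at 5198 and 4423 in saline mice 2 and 4 and 13154 and 9993 in mice 1 and 3. The clock index defined further on was 1.67, 1.97, -3.04 and 1.12 in saline mice 1 to 4, lowest in mouse 3. Its part in the split of the saline group was not tested.

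The remaining genes gave small differences with wide intervals. Scd2 had a log2 fold change of 0.26 (-0.11 to 0.63), Fads3 0.08 (-0.23 to 0.38), Elovl1 -0.03 (-0.29 to 0.22), Elovl5 -0.04 (-0.30 to 0.21) and Elovl3 -0.10 (-1.30 to 1.11). For Elovl3 the interval covers a doubling in either direction, so that no statement on its response was possible at this spread.

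**Figure D3:**
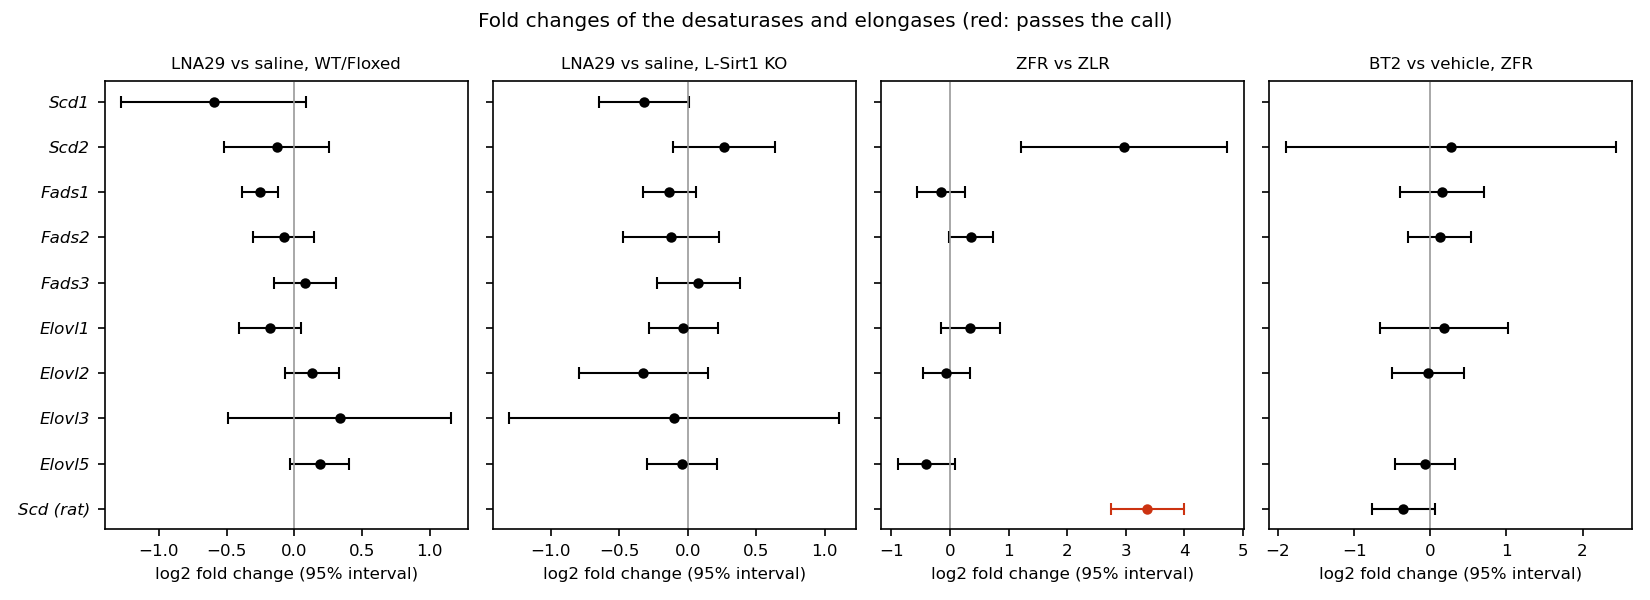
Log2 fold changes (points) with 95% intervals (bars) of the 9 genes and of the rat entry Scd in the 4 comparisons, each panel with its own horizontal scale; genes without a point were not tested in that table. Rat Scd, in red at 3.37, is the single value that passes a call, and the Fads1 interval in WT/Floxed mice (-0.39 to -0.12) and the Scd2 interval in ZFR against ZLR (1.21 to 4.74) are the others that leave out 0.

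Whether the LNA29 response differed between genotypes was tested by an interaction term over the 21 mice. None of the 9 genes passed at an adjusted p under 0.2, against a background of 7 of 15601 genes, or 0.0449%. At an unadjusted p under 0.05, limma gave 1 of the 9, Elovl2 (adjusted p = 0.543). Its log2 fold change was 0.45 higher in WT/Floxed than in L-Sirt1 KO mice (0.00 to 0.90). How many of all genes reached that unadjusted threshold is not given here, so Elovl2 is not shown to stand apart from the background. For Fads1 the difference between genotypes was -0.12 (-0.33 to 0.08; adjusted p = 0.752), and for Scd1 it was -0.28 (adjusted p = 0.897). Fads1, which separated the groups in WT/Floxed mice, was thus not shown to respond differently without hepatic Sirt1.

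The genes that work with the 9 were read from lists. Of 20 partners in elongation and electron supply, 16 were tested in WT/Floxed mice. With LNA29, 2 were called higher and 4 lower, while in mean 6 were higher and 10 lower. Over all genes tested, 2.42% were called higher and 1.93% lower. Hacd1, a dehydratase of the elongation cycle, rose from 397 ± 81.5 to 831 ± 147 (log2 fold change 1.07, adjusted p = 0.0016), and its groups did not overlap. Elovl6, which lengthens palmitate to stearate, fell from 6106 ± 881 to 3347 ± 1175 (log2 fold change -0.93, adjusted p = 0.039), again without overlap. On the log2 scale Cyb5r1 rose by 0.41 and Cyb5r3, a reductase that feeds electrons to cytochrome b5, fell by 0.37 (adjusted p = 0.129 and 0.117). In L-Sirt1 KO mice, 1 of the 16 passed: Hacd1 rose from 376 ± 21.8 to 724 ± 82.3 (log2 fold change 0.94, adjusted p = 0.0079).

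Of 17 genes of fatty acid supply and its regulators, 3 were called lower and 0 higher in WT/Floxed mice, beside 1.93% and 2.42% of all genes. The log2 fold change was -1.63 for Thrsp, a regulator of lipogenesis, -0.78 for Acly, which makes cytosolic acetyl-CoA, and -0.68 for Fasn, fatty acid synthase, where limma's adjusted p was 0.051, 0.093 and 0.132. The median of the list was -0.16 (12 lower and 5 higher), beside 0.00 over all genes. In L-Sirt1 KO mice 0 of 17 passed, and Fasn had the largest value, -0.46 (-1.18 to 0.26, adjusted p = 0.644 in limma). The list median there was -0.15 (11 lower and 6 higher), beside -0.0027 over all genes.

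Other measured differences ran beside these results. Of 8 macrophage markers, 7 were lower in mean under LNA29 in each genotype (median log2 fold change -0.43 in WT/Floxed and -0.34 in L-Sirt1 KO mice), and Clec4f and Vsig4 passed the call in L-Sirt1 KO mice. The summed level of the 8 ranged from 13479 to 23653 in WT/Floxed saline and from 7343 to 40601 in LNA29 livers. Of 7 fasting genes, 6 were higher in mean in WT/Floxed LNA29 livers (median 0.75, 0 called). In L-Sirt1 KO mice 4 of the 7 were higher in mean (median 0.51) and the groups of 3 did not overlap. There Igfbp1 (1.19) and G6pc (0.75) were called higher and Cyp4a14 (-1.53) lower. Adipocyte markers summed to 291.1 to 719.1 under LNA29 and 346.8 to 403.1 in saline livers of WT/Floxed mice, with Lep at 0 in all 13. Pancreatic acinar markers summed to 0 to 181.2 under LNA29 and 0.944 to 908.5 in saline. A clock index, the mean log2 level of Arntl, Npas2, Clock and Nfil3 minus that of Dbp, Nr1d1 and Per3, had a median of 2.93 in both WT/Floxed groups and was lowest in saline mouse 5 (0.06), the mouse with the least Elovl3. In L-Sirt1 KO mice it ran from 2.13 to 3.30 under LNA29 and from -3.04 to 1.97 in saline, without overlap. The part of these differences in the values of the 9 genes was not tested.

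The 9 genes were next compared with each other over the 21 mouse livers after the mean of each group was taken away. Of 36 pairs, 7 reached a permutation p under 0.05 and 0 did so after Benjamini-Hochberg adjustment. The closest pair was Fads2 and Elovl2, enzymes of the same polyunsaturated route, with r = 0.72 and rho = 0.66 (permutation p = 0.00342 and 0.00995, adjusted p = 0.123 and 0.179). Without the 2 livers furthest from the median of Fads2, r was 0.64, and it was 0.47 in WT/Floxed and 0.92 in L-Sirt1 KO mice. Elovl2 with Elovl5 gave r = 0.58 and rho = 0.62 (permutation p = 0.0264 and 0.0279, adjusted p = 0.154 and 0.251; 0.57 without 2 livers), and Fads2 with Elovl5 gave r = 0.53 and rho = 0.57 (permutation p = 0.0276 and 0.0234, adjusted p = 0.154 and 0.251; 0.46 without 2 livers). Outside this route, Elovl3 with Elovl5 gave r = 0.55 and rho = 0.62 (permutation p = 0.00987 and 0.0087, adjusted p = 0.154 and 0.179; 0.53 without 2 livers), Fads3 with Elovl3 gave r = 0.54 and rho = 0.45 (permutation p = 0.0299 and 0.0678, adjusted p = 0.154 and 0.423; 0.30 without 2 livers), and Scd1 with Fads1 gave r = 0.48 and rho = 0.35 (permutation p = 0.0296 and 0.144, adjusted p = 0.154 and 0.45; 0.38 without 2 livers). The lowest value was r = -0.58 and rho = -0.43 for Fads3 and Elovl1 (permutation p = 0.0227 and 0.102, adjusted p = 0.154 and 0.423), which was -0.37 without 2 livers. Fads1 and Fads2, next to each other on chromosome 19, gave r = 0.31 and rho = 0.21 (permutation p = 0.119 and 0.381, adjusted p = 0.298 and 0.685), from -0.37 to 0.94 within run codes.

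**Figure D4:**
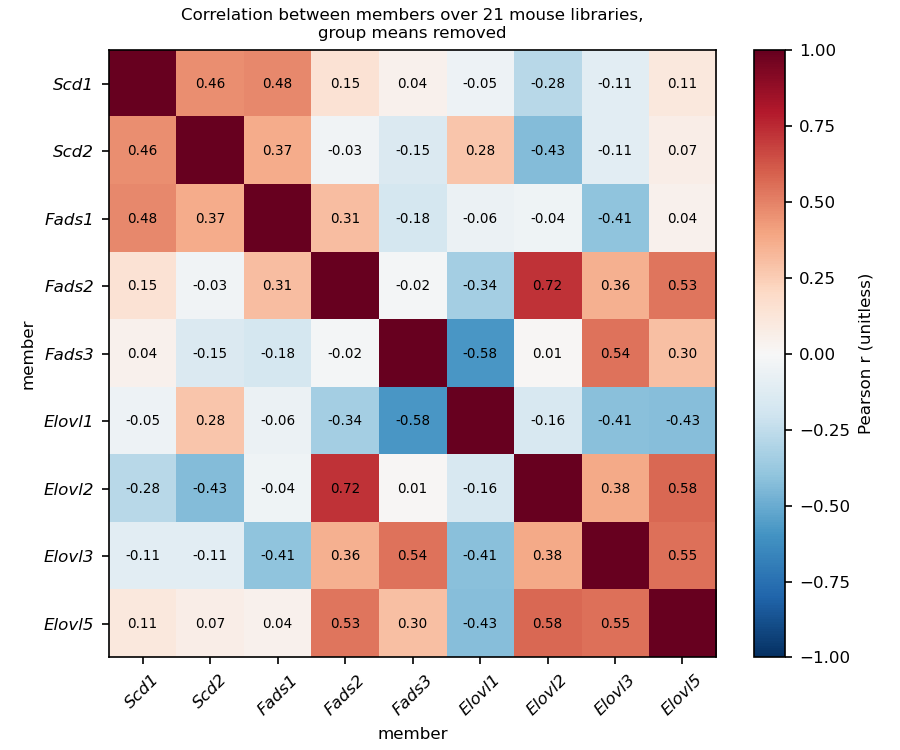
Pearson correlation (unitless, colour from -1 in blue to 1 in red) between each pair of the 9 genes over 21 mouse livers with group means removed. Fads2, Elovl2, Elovl3 and Elovl5 form a block of values above 0, led by 0.72 for Fads2 and Elovl2, and the Elovl1 row is mostly below 0; no pair passed after adjustment.

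For each gene, the most similar of 12750 other genes over the same 21 livers are given with r, as a description. Scd1 was closest to Slc44a1 (0.87), Lactb2 (0.86) and Acacb (0.86), the last of them an acetyl-CoA carboxylase. Scd2 was closest to Ckb (0.89), Pea15a (0.87) and Tlr1 (0.86). Fads1 had matches of lower r, among them Rcan2 (0.73) and Tmem123 (0.70). Fads2 had the strongest, Sec23a (0.94), 2900097C17Rik (0.90) and Sidt2 (0.88). Fads3 was closest to Tmem218 (0.86), Nlrc5 (0.83) and Kansl3 (0.81). Elovl1 was closest to Dnaja4 (0.91), P3h1 (0.89) and Thpo (0.88), and Elovl2 to Lbp (0.91), Tor1b (0.89) and Hsdl2 (0.88). Elovl3 was closest to Hsd3b7 (0.86), Ttc17 (0.84) and Ccng2 (0.84), and Elovl5 to Mdfic (0.79), Enc1 (0.78) and Pdk4 (0.78). All points share the depth and processing of their libraries.

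The third comparison set obese against lean rats. The entry Scd, which is outside the 9 names, was about 10-fold higher in ZFR and was called. Scd2 was higher in all 4 ZFR than in all 4 ZLR but was not called, and ZLR 3 and 4 rested on 1 and 0 estimated reads. The polyunsaturated desaturases Fads1 and Fads2 and the elongases overlapped between groups. Among the 9 names, 6 passed the minimum mean of 10 and 0 were called at an adjusted p under 0.05, against 4.25% of the 8633 genes tested (1.8% higher and 2.46% lower in ZFR). An unadjusted p under 0.05 in limma was reached by 1 of the 6, Scd2, and by 1429 of the 8633 genes tested. That count does not set the 6 apart. Groups did not overlap in 1 of the 6, Scd2, and in 14.5% of all genes tested, so that separation is common in this table.

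**Figure D5:**
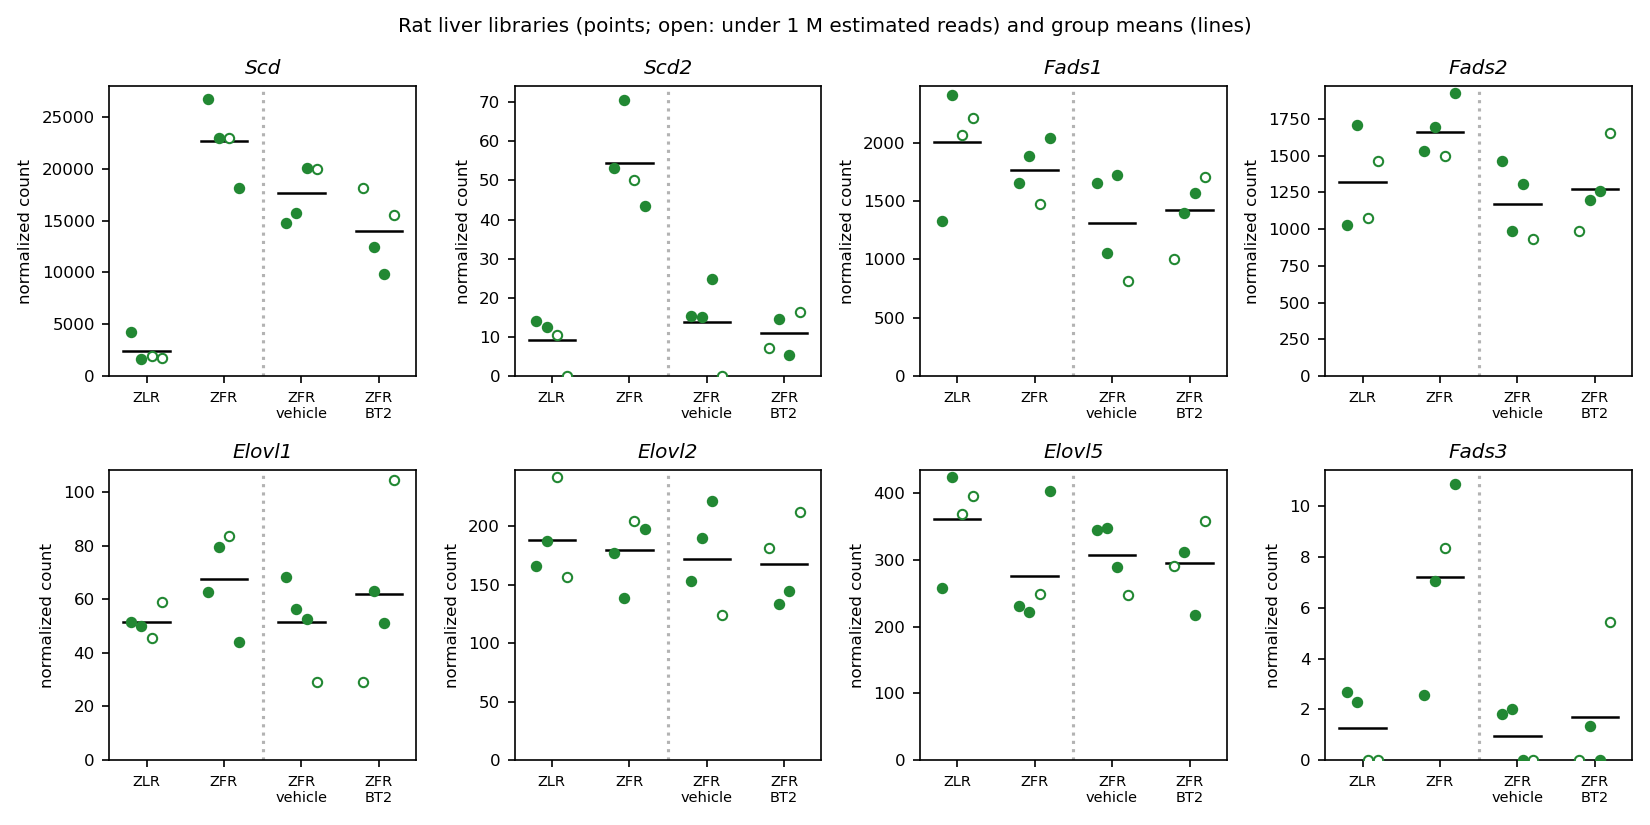
Normalized counts (vertical axes from 0) of the rat entry Scd and of 7 of the 9 genes in each of the 16 rat livers; lines are group means, open points are libraries under 1 M estimated reads, and a dotted line parts the separately normalized tables. Scd and Scd2 lie higher in every ZFR point than in any ZLR point, while Fads1, Fads2, Elovl1, Elovl2 and Elovl5 overlap; Elovl3 was listed at 0 in all 16 and is not drawn.

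Scd was counted at 26741, 22958, 22997 and 18151 in ZFR 1 to 4 and at 4233, 1651, 1896 and 1692 in ZLR 1 to 4. Every ZFR value was over 4 times the highest ZLR value. The mean was 22712 ± 3520 in ZFR and 2368 ± 1248 in ZLR (SD, n = 4 each), a log2 fold change of 3.37 (95% interval 2.75 to 3.99) with an adjusted p of 0.00016 in limma. The two-sided exact permutation p was 0.0286, the smallest that 4 against 4 allow. The difference was 3.23 to 3.51 within the run codes, and 3.08 among libraries of at least 1 M reads.

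Scd2 was counted at 53.3, 70.6, 50.1 and 43.6 in ZFR and at 13.9, 12.5, 10.5 and 0 in ZLR. The groups did not overlap, but ZLR 3 and 4 rested on 1 and 0 estimated reads, where 3 reads would be worth 31.6 and 31.3 counts. The mean was 54.4 ± 11.5 in ZFR and 9.24 ± 6.32 in ZLR, with a ratio of means of 5.89. The log2 fold change on the scale with 1 count added was 2.97 (1.21 to 4.74), with an adjusted p of 0.073, just short of the call. In the deepest library of each group the level was 53.3 from 1656 reads in ZFR 1 and 13.9 from 364 reads in ZLR 1. Scd2 passed the call, at lower fold changes, under several other settings: 1.80 with 10 counts added (adjusted p = 0.0042), 1.96 with weights for depth, 2.07 with sample quality weights, 1.97 among libraries of at least 1 M reads and 2.04 without ZLR 4, the library at 0. Over all genes, the weights for depth called 1980 and the sample quality weights 1169, against 367 in the reported fit. Among the settings that left Scd2 uncalled was the removal of ZFR 1, 2, 3 or 4. The adjusted p in limma was then 0.174, 0.205, 0.179 and 0.157, in that order. With no minimum mean it was 0.185. Among the 2 libraries of each group with the run code of the deepest libraries the difference was 2.13.

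Fads1 was counted at 1658, 1885, 1479 and 2045 in ZFR and at 1334, 2409, 2065 and 2214 in ZLR. The groups overlapped throughout, with a log2 fold change of -0.16 (-0.57 to 0.25; adjusted p = 0.680) that turned to 0.050 among libraries of at least 1 M reads. Fads2 was counted at 1533, 1692, 1498 and 1924 in ZFR and at 1028, 1711, 1075 and 1462 in ZLR (log2 fold change 0.36, -0.02 to 0.74; adjusted p = 0.326), with ZLR 2 inside the ZFR range. Fads3 was below the minimum mean and was not tested. Its counts of 2.57, 7.06, 8.36 and 10.9 in ZFR and 2.68, 2.29, 0 and 0 in ZLR rested on 80, 6, 4 and 7 and on 70, 53, 0 and 0 reads. The deep libraries of the 2 groups thus gave like levels of Fads3.

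Elovl5 was counted at 231.4, 222.4, 248.6 and 402.9 in ZFR and at 257.5, 424.8, 368.7 and 396.8 in ZLR. Of the ZFR, 3 lay below every ZLR and ZFR 4 lay among them (log2 fold change -0.41, -0.90 to 0.08; adjusted p = 0.393). Elovl2 was counted at 138.8 to 204.7 in ZFR and 156.6 to 242.3 in ZLR (-0.06, -0.46 to 0.33), and Elovl1 at 43.9 to 83.5 in ZFR and 45.4 to 58.9 in ZLR (0.35, -0.15 to 0.85). Elovl3 was listed at 0 in all 16 rat livers, the deepest of which held 58.5 M reads. How the rat annotation names this locus was not examined here.

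Of 17 genes of fatty acid supply and its regulators, 4 were called higher, 0 lower and 13 did not pass in ZFR (median 0.13). Over all genes tested, 1.8% were called higher and 2.46% lower. The log2 fold changes of the called genes were 2.66 for Fasn, 2.01 for Acly, 1.81 for Me1 (malic enzyme, a source of NADPH) and 1.77 for Thrsp. The groups of these 4 did not overlap, and limma's adjusted p was at most 0.00202. Of 10 elongation partners tested, Cyb5a, the cytochrome b5 that hands electrons to the desaturases, had a log2 fold change of -0.65 (adjusted p = 0.043). Of 11 genes of polyunsaturated fatty acid handling, 3 were called lower: Slc27a5 by 1.17, Acsl4, which prefers arachidonate, by 0.97 and Acsl1 by 0.47. The median of all genes tested was 0.07. Time-of-day genes also separated these groups: the clock index ran from -3.02 to -0.83 in ZFR and from 1.10 to 5.02 in ZLR. Arntl and Npas2 were lower and Dbp and Per3 higher in ZFR, each with an adjusted p under the threshold. Of 7 hepatocyte markers, 3 (Ttr, Fgb and Cps1) were called lower in ZFR. The part of these differences in the levels of Scd and Scd2 was not tested, and the hour of collection is not given in the sources used here.

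The fourth comparison asked whether BT2 moved these genes in ZFR. None of the 6 genes tested passed, and neither did Scd. No gene of the 8405 tested was called by limma at an adjusted p under 0.05 (0%, in either direction), while 332 had an unadjusted p under 0.05, none of them among the 6. Groups did not overlap in 2.96% of genes and in 0 of the 6.

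Scd was counted at 18166, 12416, 9869 and 15570 in BT2 and at 14760, 15734, 20041 and 20030 in vehicle livers. BT2 rats 2 and 3 lay below every vehicle rat and the other two lay among them. The log2 fold change was -0.36 (-0.77 to 0.06; adjusted p = 0.898, two-sided exact permutation p = 0.143), so that the interval holds values from a fall of 0.77 to a rise of 0.06. Scd2 rested on 2, 11, 4 and 3 reads in BT2 and on 25, 67, 27 and 0 in vehicle libraries. Its fitted log2 fold change was 0.27 (-1.90 to 2.43), whereas its ratio of means was 0.791, and the fitted sign turned in several settings. No direction can be given for Scd2 at this depth.

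Fads1 was counted at 1004, 1402, 1572 and 1708 in BT2 and at 1652, 1055, 1724 and 815.7 in vehicle livers (log2 fold change 0.16, -0.39 to 0.70; adjusted p = 0.930). Fads2 was counted at 989.3, 1199, 1260 and 1653 in BT2 and at 1461, 986.4, 1308 and 929.2 in vehicle livers (0.12, -0.29 to 0.54; adjusted p = 0.928). Both were lowest in vehicle rat 4, the shallowest library. Elovl1 (0.18, -0.65 to 1.02), Elovl2 (-0.03, -0.50 to 0.45) and Elovl5 (-0.07, -0.46 to 0.33) had intervals on either side of 0. Fads3 rested on 9 reads or fewer in each library.

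Among the partner lists under BT2, 0 genes passed. The largest values were 0.63 for Hacd2, a dehydratase of the elongation cycle (0.25 to 1.01), 1.01 for Ppara, the fatty acid receptor (-1.13 to 3.16), and 0.39 for Acsl4 (-0.14 to 0.92), each with an adjusted p of 0.898. Fasn, chosen after the values were seen because it supplies Scd, averaged 3669 ± 581 in BT2 and 6719 ± 1080 in vehicle livers without overlap. Its fitted log2 difference of -0.87 missed the threshold (adjusted p = 0.510). The clock index ran from -0.23 to 3.22 in BT2 and from -2.69 to 1.09 in vehicle livers.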

How the data were processed

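Polyadenylated liver RNA of 21 mice and 16 rats had been sequenced as single-end reads of 100 bases. Reads were aligned by the authors to mm10 or rn6 with STAR and quantified with Salmon. The deposited signal values are counts per gene that the authors had normalized with DESeq2, each of the 4 tables on its own, so that levels were tested within a table. Estimated counts are not whole (70.2 to 76.4% of low values were whole multiples of 1 read in mice, 76.0 to 90.6% in rats, tolerance 0.02), and no count model was used. Entries without a gene name (201 or 381 a table, 0.0134 to 0.0461% of counts) were left out. So were entries with a repeated name, 130 in each mouse table and 4523 in each rat table. These held 0.0897 to 0.0909% of counts in mice and 2.12 to 2.17% in rats. Genes with a mean of at least 10 were fitted as log2(value + 1) in limma 3.58.1 (R 4.3.3) with Benjamini-Hochberg adjustment over all genes tested. On this scale the added count draws fold changes of low genes toward no change, whereas a library at 0 can enlarge them. Scd2 in ZFR against ZLR was 2.97 in the fit and 2.04 without ZLR 4, the library at 0. Exact permutation tests were two-sided. A limma p-value sets a group difference against the variation between these samples, and a permutation p-value sets the observed value against rearranged samples. The fits were also run on simulated data with the same dispersion for every gene, and the outcome is not reported here. That run does not speak for genes with a wider spread. No library pair of a group differed by as little as sampling noise (mean chi-square per gene of at least 1.58). The members and gene lists were chosen with earlier results of these data known. All 9 members are named; of each list up to 4 called genes with the largest change, or the largest if none, are named, and the 3 most similar genes of each member; a few of these results are not reported here. The genotype difference set the within-table differences of both mouse tables against each other. Fits were repeated, where the design allowed, with TMM scaling, 10 counts added, no filter on low means, sample quality weights, run code or background as a covariate, a replicate block, other call thresholds, leaving out each library, and in rats voom weights and a depth minimum. Figures were drawn with Matplotlib 3.10.9.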

Additional observations from a re-analysis of the deposited data

Results flagged for a closer look

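The values of each of the 9 genes and of rat Scd were searched for a library that stood apart in its group by Dixon's criterion, in 68 groups of 4 to 8 libraries. Chance flags about 1 in 20 such groups, and 2 values met it. Elovl5 in ZFR 4, at 402.9 normalized counts, lay above the other ZFR (222.4 to 248.6) and within the ZLR range. Without ZFR 4 the log2 fold change of Elovl5 was -0.60. Scd in ZLR 1, at 4233 normalized counts, lay above the other ZLR (1651 to 1896). Without ZLR 1 the log2 fold change of Scd was 3.69, and it stayed called. Neither library was under 1 M estimated reads.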

How the results depend on the processing

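Log2 fold changes of the 9 genes and of rat Scd were recomputed under the alternatives, which gave 530 values. Of these, 502 kept their direction and 28 turned. Those that turned were 18 in BT2 against vehicle, 6 in L-Sirt1 KO mice, 3 in ZFR against ZLR and 1 in WT/Floxed mice. The intervals of the reported values concerned all covered 0. No direction turned under TMM scaling. The number of the 9 genes called in WT/Floxed mice was 1 (Fads1) under sample quality weights. Leaving out single libraries gave 0 to 1 (Fads1 -0.28 to -0.23), with the call made without LNA29 replicates 1, 3 and 4 and saline replicates 1 and 5. In ZFR against ZLR it was 1 (Scd2) under a pseudocount of 10, sample quality weights, voom precision weights and libraries of at least 1 M reads, and 0 to 1 on leaving out single libraries (Scd2 2.04 to 3.34), the call being made without ZLR replicate 4. For the genotype difference it was 1 (adjusted p = 0.137) under sample quality weights, against 0 in the reported fit. The cause of these changes was not tested. Among libraries of at least 1 M reads, the log2 fold change of Fads1 in ZFR against ZLR was 0.050, and in BT2 against vehicle Scd2 was -0.92, Elovl1 -0.049 and Fads2 -0.0077. Scd2 under BT2 was also -0.090 with a pseudocount of 10, -0.48 with sample quality weights and -0.72 with voom precision weights, where Elovl1 was -0.10 and -0.083 under the same pair of weights. Leaving out single libraries gave -0.086 to 0.68 for Elovl3 in WT/Floxed mice. In L-Sirt1 KO mice the range was -0.49 to 0.34 for Elovl3, -0.020 to 0.15 for Fads3, -0.10 to 0.056 for Elovl1 and -0.12 to 0.018 for Elovl5. It was -0.14 to 0.068 for Elovl2 in ZFR against ZLR. Under BT2 it was -0.79 to 0.77 for Scd2, -0.050 to 0.31 for Fads1, -0.0092 to 0.24 for Fads2, -0.11 to 0.49 for Elovl1, -0.17 to 0.11 for Elovl2 and -0.17 to 0.070 for Elovl5.

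With the replicate number as a replicate block, 0 of the 9 genes were called in each of the 4 comparisons and no call changed; Fads1 in WT/Floxed mice was -0.20 (adjusted p = 0.732), where LNA29 replicates 6 to 8 had no partner. Genes called among all tested fell from 688 to 56 in WT/Floxed mice, from 297 to 145 in L-Sirt1 KO mice and from 367 to 221 in ZFR against ZLR. Same-numbered libraries did not deviate together (correlations -0.281 to 0.241). In the same order sample quality weights gave 1308, 804 and 1169, and no minimum mean 396, 160 and 241. An adjusted p under 0.05 gave 206 and 37 in the 2 mouse comparisons, run code as a covariate 103 in L-Sirt1 KO mice, and in ZFR against ZLR voom precision weights gave 1980 and the mouse criteria 707. Leaving out single libraries gave 381 to 1006, 77 to 426 and 225 to 379, and 0 to 2 under BT2. For the genotype difference, against 7 as reported, sample quality weights gave 1220, run code as a covariate 19 and leaving out single libraries 0 to 233. In rats, 6 libraries under 1 M reads limit Scd2 and Fads3, where 3 reads are worth up to 31.6 normalized counts.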
